A study of Mus musculus with 9 samples.

Results

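Receptors that sense extracellular nucleotides, adenosine and fatty acids were examined as a group of 10 genes, given by name, out of the 55401 genes of the expression table. The group holds the ATP-gated channels P2rx4 and P2rx7, the nucleotide receptors P2ry2, P2ry6, P2ry13 and P2ry14, the adenosine receptors Adora2a and Adora2b, the fatty acid receptor Gpr84, and Entpd1, the cell surface enzyme that degrades extracellular ATP and ADP. RNA was sequenced from wild-type RAW264.7 cells, a mouse macrophage line derived from tumors induced by Abelson murine leukemia virus in a male. All cultures received their treatment for 24 h, as the labels state, in 3 groups of 3 samples numbered 5, 6 and 7. The DMSO group received the solvent alone, the LPS group received DMSO and lipopolysaccharide, the bacterial cell wall component that activates macrophages, and the LPS + Ska group received LPS and skatole, an indole compound. No group received skatole without LPS. The comparison of LPS with DMSO addresses the response to LPS, and that of LPS + Ska with LPS addresses what skatole changed in LPS-treated cells. All cells came from 1 line, and nothing in the labels says that the samples of a group were separate cultures, so the p-values measure the spread between these samples, which may be technical.

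Cells that are stressed, damaged or activated release ATP and UDP, which act on neighbouring cells through P2X channels and P2Y receptors. Ectoenzymes then degrade ATP stepwise to AMP and adenosine, and adenosine acts on its own receptors, of which Adora2a and Adora2b raise cyclic AMP. In macrophages, ATP acting on P2rx7 is a known trigger of inflammasome assembly and interleukin-1 beta release, and adenosine is known as a brake on inflammatory cytokine production.

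Levels are given in TPM, a share of each sample's transcripts scaled to a fixed total, which the authors computed per gene length, so that genes can be compared within a sample. TPM keeps no sequencing depth, and the depth of the samples is unknown. The values of each column summed to between 999895 and 1000145 TPM, and between 12498 and 13012 genes per column reached 1 TPM. Among genes above 0 in the 3 LPS columns, replicate 5 was the average of the other columns, within 5.1e-06 TPM, for all 17950, and the same held for all 17658 such genes of the LPS + Ska group. In the DMSO columns no such relation exceeded 0.0382% of genes. The 3 columns of the LPS and LPS + Ska groups thus carry no more than 2 independent values for a gene, and each SD with n = 3 columns in these groups describes tied columns. Differences are on the scale of log2(TPM + 1), estimated with limma over the 12819 genes with a mean of at least 1 TPM. The fit entered every column as a separate sample, so its p-values and intervals count more values than are independent. A call required both an adjusted p (Benjamini-Hochberg) under 0.05 and a fold change that was over 1.5 or under 0.67.

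The cells carried macrophage transcripts. Of 8 macrophage genes, 7 passed the filter, among them Csf1r, the receptor for the macrophage growth factor, at 835 ± 67.6 TPM (SD, n = 3) in DMSO, whereas Mertk was listed at 0 in every column. Of 13 markers of lymphocytes, granulocytes, fibroblasts, epithelium and endothelium, 0 passed the filter, the highest value of any of them was 0.672 TPM, and Cd3d, Cd3e, Ly6g, Pdgfra, Epcam and Cdh1 were listed at 0 throughout. All 7 LPS response genes examined rose in LPS compared with DMSO, with a median log2 fold change of 3.58. Some macrophage markers moved with the groups as well. In LPS compared with DMSO, 3 of the 7 were called lower and 0 higher, where 20.0% of all tested genes were called lower and 12.7% higher. In LPS + Ska compared with LPS, 1 was called higher, Lyz2, and 0 lower, beside 3.35% higher and 6.14% lower. Adgre1, Cd68, Itgam and Ptprc were not called in either comparison. Csf1r, with a log2 fold change of -0.67, and Spi1, with -0.81, fell in LPS compared with DMSO, and Lyz2, which encodes lysozyme, averaged 9150 TPM in DMSO, 4423 in LPS and 10061 in LPS + Ska. Their part in the results for the receptors was not tested. In bulk RNA, fewer cells that express a gene and less of its RNA per cell cannot be told apart.

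Of the 10 genes, 6 had a mean of at least 1 TPM over the 9 columns, which were P2ry6, Gpr84, P2rx7, P2rx4, Adora2b and P2ry2, and 4 did not, which were P2ry13, P2ry14, Adora2a and Entpd1. The summed level of the 10 genes was 275.5 to 304.8 TPM in the DMSO columns, 158 to 164 TPM in the LPS columns and 149 to 176 TPM in the LPS + Ska columns. The DMSO sums lay above all others, and those of LPS and LPS + Ska overlapped. In LPS compared with DMSO, 1 of the 6 tested genes of the group rose, Adora2b, and 2 fell, P2ry6 and Gpr84. Over all tested genes, 12.7% were called higher and 20.0% lower. When LPS + Ska was compared with LPS, 1 of the 6, Adora2b, was called lower and 0 were called higher by limma. Over all tested genes, 6.14% were called lower and 3.35% higher. The call of Adora2b was lost under several alternatives, among them the use of 2 values recovered from the tied columns (limma adjusted p = 0.071) and leaving out any 1 LPS column. At an unadjusted p below 0.05, P2ry6 was higher and Adora2b lower in that comparison, where 12.7% of all tested genes were higher and 27.8% lower. In LPS + Ska compared with DMSO, Adora2b was higher and P2ry6 and Gpr84 were lower, where 11.4% of all tested genes were called higher and 25.3% lower. The comparisons share groups and are not independent of each other.

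**Figure D1:**
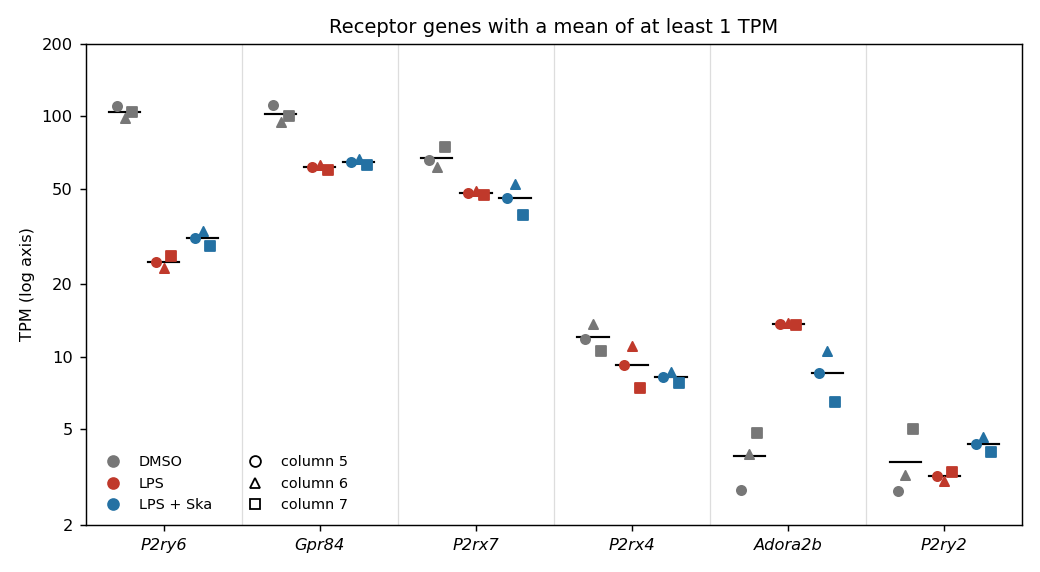
TPM on a log axis of the 6 genes with a mean of at least 1 TPM, with one point per column of DMSO, LPS and LPS + Ska (circle, triangle and square for columns 5, 6 and 7) and a horizontal line at each group mean. P2ry6 and Gpr84 sit highest in DMSO, and Adora2b sits between 2.80 and 4.84 TPM in DMSO and between 13.5 and 13.8 TPM in LPS.

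Among the ion channels, P2rx7 was the more abundant. P2rx7 (ENSMUSG00000029468) lies on chr5:122643911-122691432 of GRCm38, on the plus strand, and P2rx4 (ENSMUSG00000029470) lies 16.1 kb further along, at chr5:122707544-122729738 on the same strand, with 0 protein-coding genes between them. P2rx7 opens at high concentrations of ATP and P2rx4 at lower ones. P2rx7 was measured at 66.1, 61.3 and 74.5 TPM in DMSO (67.3 ± 6.69, SD, n = 3), at 48.0, 49.0 and 46.9 TPM in LPS (48.0 ± 1.06), and at 45.7, 52.4 and 38.9 TPM in LPS + Ska (45.7 ± 6.76). Every DMSO column lay above every other column, and the LPS + Ska columns spanned those of LPS. The log2 fold change in LPS compared with DMSO was -0.48 (SE 0.11, limma adjusted p = 0.0039), which is inside the fold change limit, so P2rx7 was not called. Between LPS + Ska and LPS it was -0.08, with a 95% interval of -0.32 to 0.16 and a limma adjusted p of 0.62. The log2 fold change of LPS + Ska against DMSO was -0.56 (limma adjusted p = 0.0015), just inside the limit, and P2rx7 was called lower without DMSO replicate 6 (-0.62) or without LPS + Ska replicate 6 (-0.66).

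P2rx4 was measured at 11.9, 13.7 and 10.6 TPM in DMSO (12.1 ± 1.55, SD, n = 3), at 9.24, 11.1 and 7.41 TPM in LPS (9.24 ± 1.83), and at 8.23, 8.67 and 7.79 TPM in LPS + Ska (8.23 ± 0.439). The tied LPS columns overlapped both other groups, and the LPS + Ska columns lay below those of DMSO. The values recovered from the tied LPS columns, as described below for Adora2b, were 10.15 and 8.32 TPM, below every DMSO column. The log2 fold change was -0.36 in LPS compared with DMSO (SE 0.14, limma adjusted p = 0.051) and -0.50 in LPS + Ska compared with DMSO (limma adjusted p = 0.012), both short of a call. Between LPS + Ska and LPS it was -0.14, with a 95% interval of -0.45 to 0.18.

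P2ry6, a receptor for UDP that couples to phospholipase C, showed the largest difference of the group. It lies on chr7:100937630-100974649 on the minus strand (ENSMUSG00000048779), 21.9 kb from P2ry2 (ENSMUSG00000032860, chr7:100996568-101012866, minus strand), with 0 annotated genes between them. P2ry6 was measured at 110.1, 98.0 and 103.9 TPM in DMSO (104.0 ± 6.04, SD, n = 3), at 24.8, 23.5 and 26.1 TPM in LPS (24.8 ± 1.33), and at 31.1, 33.3 and 28.9 TPM in LPS + Ska (31.1 ± 2.19). The 3 groups did not overlap, with DMSO highest and LPS lowest. P2ry6 fell by 2.02 on the log2 scale in LPS compared with DMSO (SE 0.08, limma adjusted p = 8.1e-08). With replicate 5 as the single sample of LPS and of LPS + Ska, P2ry6 was again called lower (limma adjusted p = 0.0012). Against DMSO, P2ry6 in LPS + Ska was lower by a log2 fold change of -1.71 (limma adjusted p = 2.6e-07).

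With skatole added to LPS, P2ry6 had a log2 fold change of 0.31 (SE 0.08, 95% interval 0.14 to 0.48, limma adjusted p = 0.014), inside the fold change limit and so not called. With 2 values recovered from the tied columns of each LPS-treated group, the limma adjusted p was 0.039. The level of P2ry6 in LPS + Ska was thus above the LPS columns in each column, and far below every DMSO column. Ranked by level among the tested genes, P2ry6 stood at percentile 87.3 in DMSO, 55.7 in LPS and 63.6 in LPS + Ska. A gene model on the opposite strand, Gm44545, overlaps P2ry6 and was listed at up to 0.603 TPM, and whether the authors' counting used strand is not given in the sources used here.

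P2ry2, the neighbour of P2ry6 on chromosome 7 and a receptor for ATP and UTP, was not called in any comparison. P2ry2 was measured at 2.77, 3.24 and 5.00 TPM in DMSO (3.67 ± 1.17, SD, n = 3), at 3.18, 3.05 and 3.32 TPM in LPS (3.18 ± 0.135), and at 4.33, 4.63 and 4.03 TPM in LPS + Ska (4.33 ± 0.301). The DMSO columns spanned those of both other groups, and all LPS + Ska columns lay above those of LPS. The log2 fold change was -0.13 in LPS compared with DMSO (limma adjusted p = 0.52) and turned to 0.06 without DMSO replicate 7. Between LPS + Ska and LPS it was 0.35, with a 95% interval of -0.03 to 0.73 (limma adjusted p = 0.15), so neither an increase nor a lack of change was shown. Within a column, the ratio of P2ry6 to P2ry2 was 20.8 to 39.7 in DMSO, 7.71 to 7.88 in LPS and 7.17 to 7.19 in LPS + Ska. The ratio of P2ry6 to P2rx7 was 1.39 to 1.66 in DMSO, 0.479 to 0.558 in LPS and 0.634 to 0.742 in LPS + Ska, so that the more abundant of the pair was P2ry6 in every DMSO column and P2rx7 in every other column.

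The 2 remaining P2Y receptors were at or near 0. P2ry13, an ADP receptor, was listed at 0.103 TPM in DMSO replicate 6 and at 0 in the other 8 columns. P2ry14, a receptor for UDP-glucose, was listed at 0.131 TPM in DMSO replicate 5 and at 0 in the other 8 columns. They lie 54.3 kb apart on the minus strand of chromosome 3, at chr3:59207892-59210882 (P2ry13, ENSMUSG00000036362) and chr3:59113855-59153618 (P2ry14, ENSMUSG00000036381), within the span of Med12l on the opposite strand. Med12l itself was listed at no more than 0.037 TPM.

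Of the adenosine receptors, Adora2b rose with LPS. Adora2b (ENSMUSG00000018500) lies on chr11:62248984-62266453 on the plus strand and encodes the receptor of lower adenosine affinity. It was measured at 2.80, 3.96 and 4.84 TPM in DMSO (3.87 ± 1.02, SD, n = 3), at 13.7, 13.8 and 13.5 TPM in LPS (13.7 ± 0.163), and at 8.53, 10.5 and 6.505 TPM in LPS + Ska (8.53 ± 2.02). The 3 groups did not overlap, and LPS + Ska lay between the others. The mean TPM in LPS was 3.54 times that in DMSO, and the log2 fold change was 1.62 (SE 0.18, limma adjusted p = 6.7e-05). Against DMSO, the log2 fold change of LPS + Ska was 0.97 (limma adjusted p = 0.0013), and the adjusted p was 0.052 with replicate 5 as the single sample of each LPS-treated group.

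With skatole added to LPS, Adora2b fell by 0.65 on the log2 scale (SE 0.18, 95% interval -1.06 to -0.23, limma adjusted p = 0.029), and the ratio of the mean TPM was 0.623. This call rested on the tied columns and on the settings. Leaving out 1 tied column does not leave out 1 independent sample, so it shows only how the call depended on the columns entered. As an alternative, the columns of each of these groups were replaced by 2 values, set on either side of replicate 5. Their distance from it was 0.5 of the deviation of replicate 6 or 7, whichever was larger in size. This assumes that replicate 5 is the mean of 2 samples and that the deviation is their difference. With these recovered values, which were 13.8 and 13.6 TPM in LPS and 9.54 and 7.52 TPM in LPS + Ska, the log2 fold change was -0.63 and the limma adjusted p was 0.071. The call was also lost with no filter on TPM (limma adjusted p = 0.065), with median-ratio scaling (-0.55, inside the fold change limit), without LPS replicate 5, 6 or 7 (limma adjusted p = 0.089, 0.077 and 0.072) and without LPS + Ska replicate 5 or 7 (0.082 and 0.075). Over all alternatives the adjusted p ran from 0.011 to 0.56, and the log2 fold change was negative in each.

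Adora2a, the adenosine receptor of higher affinity (ENSMUSG00000020178, chr10:75316877-75334784, plus strand), was listed at 0, 0.091 and 0 TPM in DMSO, at 0.175, 0.168 and 0.183 TPM in LPS, and at 0.141, 0.171 and 0.111 TPM in LPS + Ska. All 6 LPS-treated columns were above those of DMSO, at levels below the filter. In a fit without the filter, the log2 fold change was 0.19 in LPS compared with DMSO (limma adjusted p = 0.0063), inside the fold change limit, and -0.04 in LPS + Ska compared with LPS (limma adjusted p = 0.47). Adora2b was therefore the more abundant of the pair in every column.

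**Figure D2:**
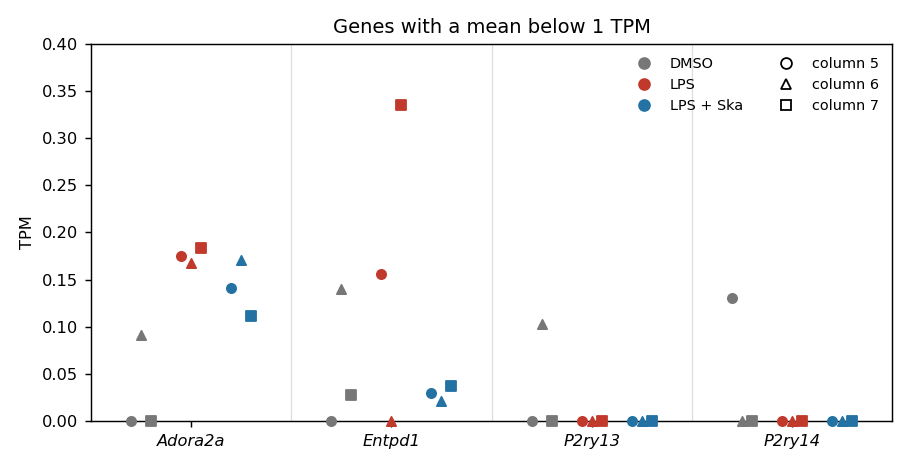
TPM on a linear axis from 0 of the 4 genes with a mean below 1 TPM, with one point per column of DMSO, LPS and LPS + Ska (circle, triangle and square for columns 5, 6 and 7). P2ry13 and P2ry14 have a single column above 0 each, Adora2a is above 0 in all 6 LPS-treated columns, and Entpd1 reaches 0.335 TPM in 1 LPS column.

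Gpr84, a receptor for medium-chain fatty acids that couples to inhibitory G proteins, fell with LPS. It lies on chr15:103308235-103310612 on the minus strand (ENSMUSG00000063234). Gpr84 was measured at 111.0, 94.95 and 100.7 TPM in DMSO (102 ± 8.12, SD, n = 3), at 61.4, 63.0 and 59.9 TPM in LPS (61.4 ± 1.51), and at 64.6, 66.6 and 62.6 TPM in LPS + Ska (64.6 ± 2.04). All DMSO columns lay above the rest, and the tied LPS and LPS + Ska columns overlapped. With the recovered values, 62.2 and 60.7 TPM in LPS and 65.6 and 63.6 TPM in LPS + Ska, these groups did not overlap. The limma adjusted p between them was then 0.60. The log2 fold change in LPS compared with DMSO was -0.72 (SE 0.07, limma adjusted p = 1.7e-05). Between LPS + Ska and LPS it was 0.07, with a 95% interval of -0.08 to 0.22 (limma adjusted p = 0.45). Against DMSO, Gpr84 in LPS + Ska was at -0.65 (limma adjusted p = 2.5e-05). For that comparison median-ratio scaling moved the median of all tested genes by 0.172, from -0.18 to near 0, and relative to it Gpr84 was at -0.46, inside the fold change limit.

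The 300 bases around the transcription start of Adora2b and of Gpr84 are shown because their CpG content differs. They are RefSeq promoters on GRCm38.p6, 250 bases before to 50 bases after the start, printed 5′ to 3′ on the gene's strand with CpG dinucleotides in capitals, at chr11:62248734-62249033 for Adora2b and chr15:103310389-103310688 for Gpr84.
Adora2b: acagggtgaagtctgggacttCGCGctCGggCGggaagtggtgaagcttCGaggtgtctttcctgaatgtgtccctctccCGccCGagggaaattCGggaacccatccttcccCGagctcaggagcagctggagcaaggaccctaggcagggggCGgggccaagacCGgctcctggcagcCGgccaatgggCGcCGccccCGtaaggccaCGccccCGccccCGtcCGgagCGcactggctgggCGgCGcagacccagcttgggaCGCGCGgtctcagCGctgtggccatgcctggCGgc
Gpr84: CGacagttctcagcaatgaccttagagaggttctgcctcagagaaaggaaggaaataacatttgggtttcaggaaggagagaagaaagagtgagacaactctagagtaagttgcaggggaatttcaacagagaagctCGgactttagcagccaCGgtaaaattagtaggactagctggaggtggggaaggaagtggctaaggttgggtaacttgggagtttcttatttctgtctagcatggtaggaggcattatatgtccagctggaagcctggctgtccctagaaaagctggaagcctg
The Adora2b promoter was 70.0% G or C and held 27 CpG dinucleotides, 0.735 of the number its base composition gives, at percentile 73.7 of 32851 mouse promoters. The Gpr84 promoter was 47.0% G or C and held 3 CpG dinucleotides, a ratio of 0.204, at percentile 29.3. The windows are not alike relative to the gene spans given above. For Adora2b the RefSeq start is the start of the span. For Gpr84 the span begins, on its strand, at chr15:103310612, so most of the bases before the RefSeq start lie inside it. Of the other receptors above the filter, the P2ry2 promoters were at percentiles 78.7 and 81.3. The P2rx4 promoter was at 68.0 and the P2rx7 promoters were at 49.7 and 28.7. RefSeq promoters were matched for 8 of the 10 genes, and both strands were searched for 5 motifs, which were GGANNTTCC for NF-kB (in 4.26% of all promoters), TGANTCA for AP-1 (7.81%), TGACGTCA for the cyclic AMP response element (1.79%), GAAANNGAA for the interferon response element (8.56%) and CACGTG for the E-box (7.15%). Neither of the printed promoters held a match to any of these letters. Among the other receptors above the filter with a matched promoter, a P2rx7 promoter held an AP-1 match. The P2ry2 promoters overlap and share the same E-box match, at -18 and 37 relative to their starts. Below the filter, a P2ry14 promoter held an NF-kB match (at -103) and others an AP-1 match (at -144 and -202). The Entpd1 and P2ry13 promoters held none. No promoter was matched for P2ry6 or Adora2a, so these genes were not searched. The matches and the CpG content are descriptions of the sequence, and their relation to the measured levels was not tested.

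Entpd1, which removes the ATP and ADP that the P2 receptors sense, was listed at 0, 0.140 and 0.0273 TPM in DMSO, at 0.156, 0 and 0.335 TPM in LPS, and at 0.0294, 0.0213 and 0.0374 TPM in LPS + Ska. The columns of the groups overlapped, and the level of Entpd1 was below the filter in every column. With the recovered values, 0.246 and 0.0666 TPM in LPS and 0.0334 and 0.0253 TPM in LPS + Ska, LPS did not overlap LPS + Ska. Each of them still overlapped DMSO. In a fit of the columns without the filter, the log2 fold change of LPS + Ska against LPS was -0.17 (limma adjusted p = 0.29). Entpd1 (ENSMUSG00000048120) lies on chr19:40612366-40741602 on the plus strand. A processed pseudogene on the same strand within its span, Gm8783, was listed at 18.6 to 31.7 TPM, and how reads in the shared interval were assigned is not given in the sources used here.

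The order of the receptors by level changed between the groups. In DMSO the order was P2ry6, Gpr84, P2rx7, P2rx4, Adora2b and P2ry2, and P2ry6 overlapped Gpr84 and Adora2b overlapped P2ry2. In LPS the order was Gpr84, P2rx7, P2ry6, Adora2b, P2rx4 and P2ry2, and no neighbours in this order overlapped. In LPS + Ska the order was the same as in LPS, and Adora2b overlapped P2rx4. P2ry6 made up 34.7% to 36.1% of the summed level in the DMSO columns, 14.4% to 16.6% in LPS and 18.9% to 19.4% in LPS + Ska. Adora2b made up 0.919% to 1.61% in DMSO, 8.46% to 8.57% in LPS and 4.37% to 5.98% in LPS + Ska. The shares of both genes did not overlap between the 3 groups. Gpr84 held 33.6% to 36.4% in DMSO, 38.0% to 38.5% in LPS and 37.8% to 42.0% in LPS + Ska.

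**Figure D3:**
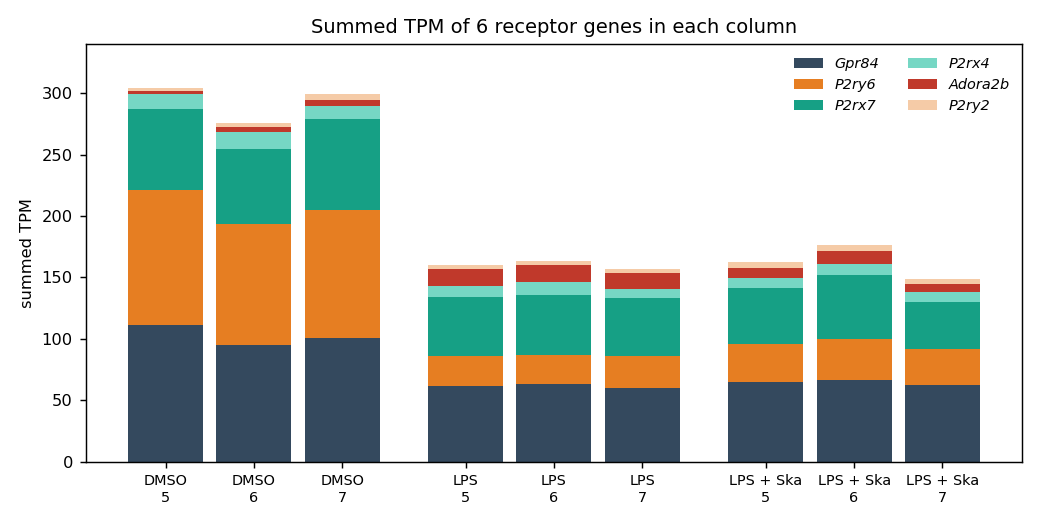
Stacked bars of the TPM of the 6 genes above the filter in each of the 9 columns, on a linear axis from 0, with one color per gene. The DMSO bars are the tallest, with sums over all 10 genes of 275.5 to 304.8 TPM beside 149 to 176 TPM in the LPS-treated columns, and with a smaller P2ry6 segment in every LPS-treated bar.

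Across the 6 tested receptors the median log2 fold change was -0.42 in LPS compared with DMSO, beside -0.07 over all tested genes. The median for LPS + Ska compared with LPS was near 0, at -0.0041, beside -0.10 over all tested genes, and in LPS + Ska compared with DMSO it was -0.53, beside -0.18.

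**Figure D4:**
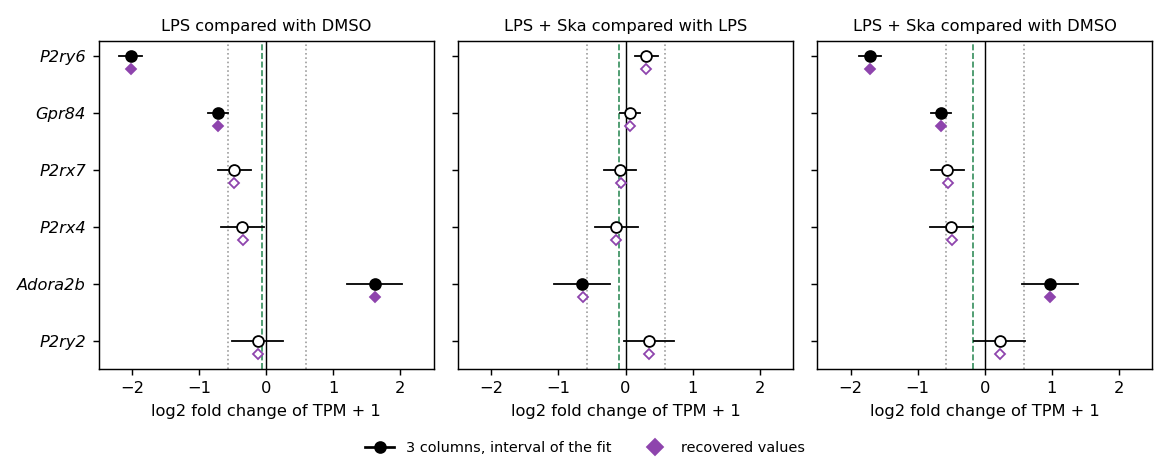
Log2 fold change of TPM + 1 for the 6 tested receptors in the 3 comparisons, with circles and 95% intervals from the 3 columns of each group and diamonds from the recovered values, filled where the gene was called, dotted lines at the fold change limits and a dashed line at the median of all tested genes. Adora2b in LPS + Ska compared with LPS is called from the columns (-0.65) and not from the recovered values (-0.63).

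The tested genes whose pattern over the 9 columns was most like that of Adora2b, which of the 6 tested genes of the group had the largest difference between LPS + Ska and LPS, were Neo1, Rasa1 and Ap1s3. Likeness was measured as the root mean square difference of log2(TPM + 1) from the DMSO mean, which was 0.122 for Neo1, 0.148 for Rasa1 and 0.156 for Ap1s3. Neo1, which encodes the guidance receptor neogenin, averaged 1.55 TPM in DMSO, 6.36 in LPS and 3.90 in LPS + Ska. Rasa1, which encodes a Ras GTPase-activating protein, averaged 62.0, 175 and 120 TPM in the same order. Ap1s3, which encodes an adaptor complex subunit, averaged 31.0, 91.8 and 68.0 TPM. In LPS + Ska compared with LPS, Neo1 was called lower (-0.60), and Rasa1 (-0.54) and Ap1s3 (-0.43) were inside the fold change limit and not called.

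The other genes of the pathway were taken from lists chosen by function, whose counts are to be read against the shares of all tested genes called, which were 12.7% higher and 20.0% lower in LPS compared with DMSO and 3.35% higher and 6.14% lower in LPS + Ska compared with LPS. Of 12 other nucleotide and adenosine receptors, 1 passed the filter, Adora3, an adenosine receptor that couples to inhibitory G proteins. Adora3 averaged 3.06 ± 0.707 TPM (SD, n = 3) in DMSO, 2.98 ± 1.01 in LPS and 6.37 ± 0.948 in LPS + Ska, and the LPS + Ska columns did not overlap the others. It rose between LPS and LPS + Ska by 0.91 on the log2 scale (SE 0.21, limma adjusted p = 0.012, and 0.027 with the recovered values). The recovered values of Adora2b gave an adjusted p of 0.071 with limma for its lower level in the same comparison, and whether the changes of these adenosine receptors differ was not tested. P2ry1, P2ry4, P2ry10, P2ry12 and Adora1 were listed at 0 in every column.

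Of 26 genes of nucleotide release, hydrolysis and adenosine handling, 18 were tested, and 2 rose and 3 fell in LPS compared with DMSO, near the shares over all tested genes. The changes largest in size were those of Enpp4, an ectoenzyme that hydrolyses nucleotides, at 1.69 (limma adjusted p = 5.5e-06), and Slc29a3, a nucleoside transporter of lysosomes, at -1.14 (limma adjusted p = 1.1e-05). Between LPS and LPS + Ska 1 rose and 1 fell. Bst1, an ectoenzyme that uses NAD, averaged 25.6 TPM in DMSO, 12.01 in LPS and 18.8 in LPS + Ska. The difference of LPS + Ska from LPS was 0.61 on the log2 scale (limma adjusted p = 0.0013, and 0.0098 with the recovered values). It was inside the fold change limit without LPS replicate 6 (0.57) or LPS + Ska replicate 6 (0.58). Ada, which converts adenosine to inosine, averaged 13.1, 10.7 and 6.55 TPM and fell by 0.65 on the log2 scale (limma adjusted p = 0.018, and 0.031 with the recovered values). The call of Ada was lost without LPS replicate 5 or 7 (limma adjusted p = 0.061 and 0.058), without LPS + Ska replicate 5 (0.056), without LPS + Ska replicate 6 (-0.48) and with median-ratio scaling (-0.56). Nt5e, the ectoenzyme that makes adenosine from AMP, was listed at no more than 0.0181 TPM, and Cd38 at 0.

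Of 7 inflammasome genes downstream of P2rx7, 6 were tested, and 2 rose and 1 fell in LPS compared with DMSO. The changes largest in size were those of the cytokine genes Il1b, at 4.66 (limma adjusted p = 4.2e-07), and Il18, at 2.03 (limma adjusted p = 1.3e-06). With skatole added to LPS, Il1b at -1.41 (limma adjusted p = 0.0023) and Il18 at -0.91 (limma adjusted p = 9.4e-04) fell. With the recovered values the limma adjusted p was 0.0058 for Il1b and 0.0079 for Il18. Casp1, the protease that processes both cytokines, averaged 76.5 TPM in DMSO, 53.0 in LPS and 80.3 in LPS + Ska. Between LPS and LPS + Ska it rose by 0.59 (limma adjusted p = 1.7e-04, and 0.0024 with the recovered values). The difference was inside the fold change limit, at 0.57, without LPS replicate 7 or LPS + Ska replicate 6. Pycard, the adaptor that links sensors to Casp1 and that RAW264.7 cells are known to lack, was listed at no more than 0.0866 TPM.

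Of 14 other metabolite receptors, 5 were tested. In LPS compared with DMSO, Hcar2, a receptor for ketone bodies and niacin, rose by 0.74 (limma adjusted p = 0.0045, and 0.52 without DMSO replicate 5, inside the limit) and Gpr183, a receptor for oxysterols, fell by 0.65 (limma adjusted p = 2.1e-05, and -0.56 with median-ratio scaling, inside the limit). In LPS + Ska compared with LPS, Ffar4, a receptor for long-chain fatty acids, was at -1.01 (limma adjusted p = 0.0015, and 0.016 with the recovered values). The fatty acid receptor Gpr84 was at 0.07. Gpr183 was at -0.63 (limma adjusted p = 1.8e-04, and 0.0022 with the recovered values), and at -0.53 with median-ratio scaling, inside the limit. Gpr132 was at 1.12 (limma adjusted p = 0.028), and its call was lost with the recovered values (0.099), with no filter on TPM (0.074), without LPS replicate 5, 6 or 7 (0.078, 0.081 and 0.058) and without LPS + Ska replicate 5 or 7 (0.077 and 0.056).

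Of 20 G protein and cyclic AMP signalling genes, 19 were tested, and 2 rose and 5 fell in LPS compared with DMSO. The changes largest in size were those of Gna11, a G protein subunit through which receptors such as P2ry6 activate phospholipase C, at -1.18 (limma adjusted p = 1.2e-04), and Pde4b, which degrades cyclic AMP, at 1.09 (limma adjusted p = 3.8e-04). With skatole added to LPS, 0 of the 19 were called by limma in either direction, and 4 were lower and 0 higher at an unadjusted p below 0.05, where 27.8% of all tested genes were lower and 12.7% higher.

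**Figure D5:**
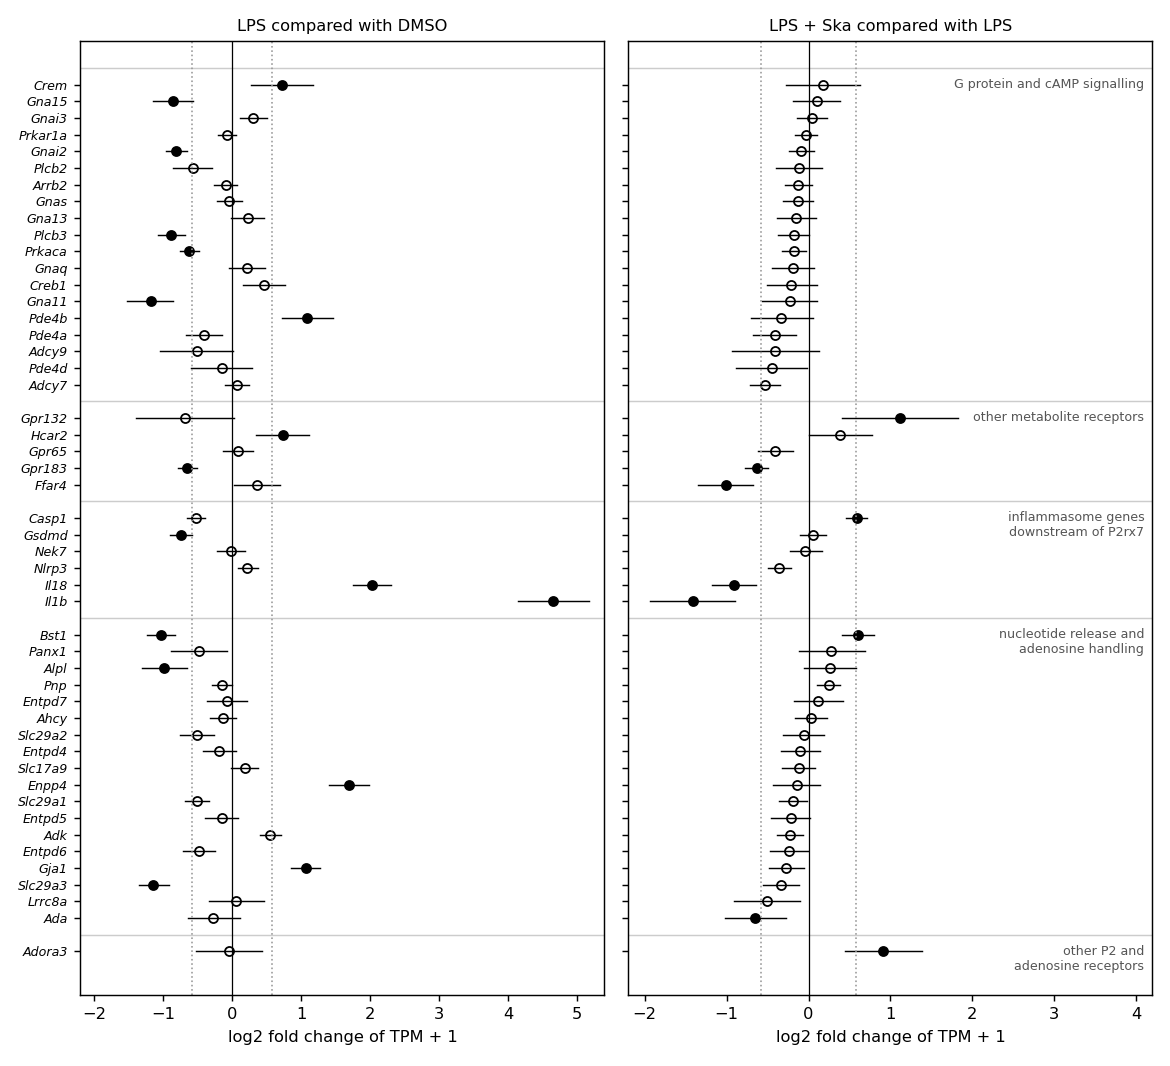
Log2 fold change of TPM + 1 with 95% intervals for the tested genes of the 5 wider lists in LPS compared with DMSO and in LPS + Ska compared with LPS, filled where called, with dotted lines at the fold change limits. Il1b at 4.66 in LPS compared with DMSO and Il1b at -1.41 in LPS + Ska compared with LPS are the points farthest from 0 in their panels.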

How the data were processed

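RNA was sequenced from 9 samples, 3 per group, and samples were grouped by the treatment given in the labels. The authors deposited 1 table of TPM values for 55401 genes. The submitters' processing notes name fastp 0.20.1, HISAT2 2.2.1, StringTie 2.0 and the build mm10, and the annotation is not given in the sources used here. The labels and the study's results give 24 h of treatment, and its methods give another time. Symbols were matched for 55141 identifiers, and positions are from GENCODE on GRCm38, the same build.

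Log2(TPM + 1) was fitted with limma 3.58.1 (lmFit, eBayes with an intensity trend) in R 4.3.3 with all 9 columns, for genes with a mean of at least 1 TPM, with Benjamini-Hochberg adjustment over all 12819 genes. Intervals are 95% and come from this fit. Tests were two-sided. TPM keeps no depth, so no counting error could be given. Promoters are from RefSeq. The script was tested on simulated data. For tied columns that test allowed a larger share of unchanged genes with an unadjusted p below 0.05 than for untied columns. The 10 genes and the wider lists were chosen with earlier results of these data known. Every one of the 10 genes is named, with every gene of the other lists called in LPS + Ska compared with LPS, the 2 largest called changes of each list in LPS compared with DMSO, and the 3 genes most like Adora2b. Genes of the macrophage, LPS response and other cell type lists served as checks, and those named were chosen after their values were seen, as were genes named for being listed at or near 0. Alternatives changed the pseudocount, filter, scaling, samples, trend, replicate block, threshold and treatment of the tied columns, or left out 1 column. A left-out LPS or LPS + Ska column is tied to the others and is not 1 independent sample. For the named genes of the wider lists the alternatives were added after the data had been seen.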

Additional observations from a re-analysis of the deposited data

How the results depend on the processing

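The direction of each receptor's difference held under every alternative run except in 3 cases, all of differences that were not called: P2ry2 in LPS compared with DMSO was at 0.06 without DMSO replicate 7 (-0.27 to 0.06 over the columns left out), and P2rx7 in LPS + Ska compared with LPS was at 0.02 with median-ratio scaling and at 0.03 without LPS + Ska replicate 7 (-0.18 to 0.03). In LPS + Ska compared with LPS, the number of receptors called was 0 with no filter on TPM, with median-ratio scaling, with the recovered values and with replicate 5 alone, 0 to 1 when 1 column was left out, and 2 on the adjusted p alone. In LPS + Ska compared with DMSO it was 5 on the adjusted p alone. Over all tested genes, the adjusted p alone called 7734 genes in LPS compared with DMSO, 3663 in LPS + Ska compared with LPS and 8116 in LPS + Ska compared with DMSO, beside 4189, 1216 and 4700 with the fold change limit. With replicate 5 alone, limma called 0 genes in LPS + Ska compared with LPS, and 1611 of 12819 had an unadjusted p below 0.05. That setting leaves 1 sample in each LPS-treated group, assumed to vary like the DMSO columns. All named genes of the wider lists lost their call in LPS + Ska compared with LPS under it, with adjusted p of 0.20 to 0.61, as did Hcar2 in LPS compared with DMSO (0.15). Leaving out 1 column gave 3996 to 4238, 905 to 1499 and 4514 to 4810 genes called. With median-ratio scaling the share of called genes that were higher was 48.8%, 52.4% and 49.6% in the 3 comparisons, beside 38.9%, 35.3% and 31.0%. A mean of at least 5 TPM left P2ry2 without a value.

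The replicate numbers were not used as pairs, because the tied columns leave fewer than 3 independent pairs. Same-numbered deviations correlated at 0.128 to 0.384 between LPS + Ska and LPS and at -0.032 to 0.0801 in the other comparisons. With the replicate number as a block, 4235, 1198 and 4729 genes and 3, 1 and 3 of the receptors were called. The causes of these changes were not tested. The unknown depth and the tied columns limit what can be said of genes near 0 TPM and of the difference of Adora2b between LPS + Ska and LPS.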
